A study of Mus musculus with 32 samples.

Results

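Lactation day 1 was compared with pregnancy day 17 in the mouse mammary gland, the sampled stages on either side of birth. The comparison rests on 8 of the 32 arrays of the series, found by their titles: 4 mammary gland arrays titled as lactation day 1 and 4 titled as pregnancy day 17. Tissue of both stages came from wildtype FVB mice fed normal lab chow, and no agent or engineered allele is named for either stage. The series also holds chow-fed mammary arrays of pregnancy day 12 and lactation days 2 and 9, which give a time course of 20 arrays with 4 per stage, and a diet experiment at lactation day 10. Each sample was measured as RNA on its own array of 12488 probe sets, and the deposited intensities were read on a log2 scale, so that a change of 1 is a 2-fold difference. The labels call the arrays of a stage quadruplicates lysed individually and do not say that each came from a separate dam, nor give the age of the dams. The p-values therefore measure only the spread between these samples, which may be technical, and 4 arrays per stage limit their precision. Whole tissue was measured, and in such samples fewer cells of a type and less RNA per cell cannot be told apart.

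As background, the alveolar epithelium of late pregnancy already makes casein RNA and stores fat droplets, while progesterone holds back full secretion. Progesterone falls around birth, and with prolactin and glucocorticoid present the gland passes to copious secretion. Proteins, lactose and calcium then leave the cell through the endoplasmic reticulum, Golgi and secretory vesicles, fat leaves as droplets wrapped in cell membrane, and the tight junctions between alveolar cells close.

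The labelled tissue was borne out by its defining genes at both stages. Csn2, the gene of beta-casein, averaged 14.06 ± 0.04 at lactation day 1 and 13.90 ± 0.10 at pregnancy day 17 (SD, n = 4 each, as for every mean below), and Wap, which encodes whey acidic protein, averaged 15.62 ± 0.10 at lactation day 1 and 15.72 ± 0.04 at pregnancy day 17. Krt8, a keratin of luminal epithelium, averaged 9.21 ± 0.10 at lactation day 1 and 10.11 ± 0.10 at pregnancy day 17. The median intensity per array was 17.6 to 18.6 at lactation day 1 and 16.9 to 17.9 at pregnancy day 17. A probe set was tested where a stage mean reached 18.6, or 4.22 in log2, the median of all values of the table and called the filter line here. A mean below this line is not clearly above background, and no fold is given for such a gene.

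Lactation day 1 replicate 1 stood apart from the other day 1 arrays. Its mean correlation over probe sets with its own stage was 0.975, against 0.984 to 0.985 for the other day 1 arrays. With the lactation day 2 arrays it correlated at 0.977, the others at 0.967 to 0.971, and with the pregnancy day 17 arrays at 0.944, the others at 0.955 to 0.957. Replication and mitosis genes were highest in this array, and fibroblast and adipocyte markers lowest, as the plot of gene lists by array shows. For lists whose count of calls it changed by 2 or more, the count without it is given beside the list. In each other list described, at most 1 call was lost and 1 gained without it.

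**Figure D1:**
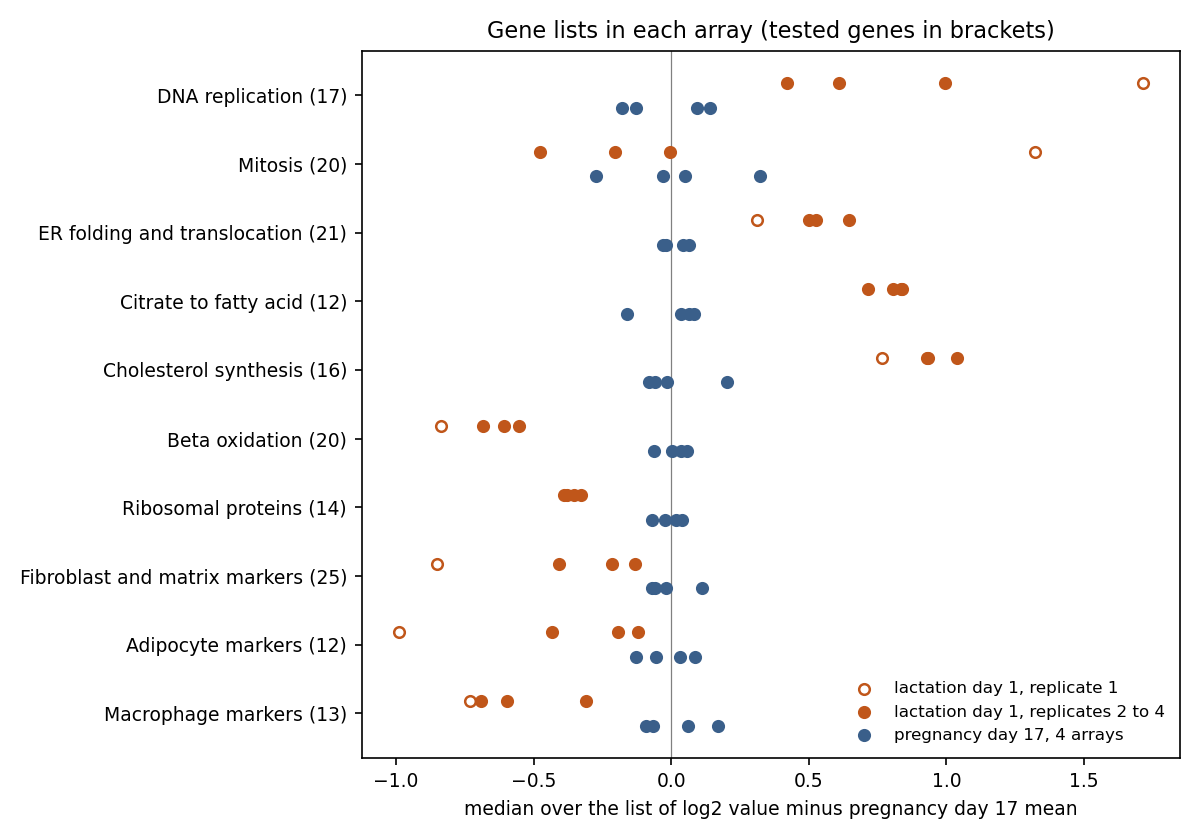
Gene lists in each of the 8 arrays: the x axis is the median, over the tested genes of a list, of the log2 value minus that gene's pregnancy day 17 mean, with each point an array and the number of tested genes in brackets. Replicate 1 of lactation day 1 (open circle) lies at 1.71 for DNA replication and 1.32 for mitosis, above the other 3 day 1 arrays, and at -0.85 for fibroblast and -0.99 for adipocyte markers, below them.

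Birth was accompanied by more falls than rises. Of 7186 probe sets tested, limma with Benjamini-Hochberg adjustment called 1674 (23.3%) at an adjusted p under 0.05, against 2419 (33.7%) at an unadjusted p under 0.05. The calls were 670 higher at lactation day 1 (9.32%) and 1004 lower (14.0%). By at least 2-fold, 172 rose (2.39%) and 225 fell (3.13%). For 1757 probe sets (24.5%) the 4 values of one stage lay wholly apart from the 4 of the other, with day 1 above in 796 (11.1%) and below in 961 (13.4%). The median change of all tested probe sets was 0.03. Without lactation day 1 replicate 1, 678 were higher and 897 lower. If the arrays are instead scaled to equal ribosomal protein medians, every change moves up by 0.33 in the median and the split turns to 3879 higher and 416 lower, 90.3% of calls higher against 40.0% on the deposited scale. Directions below are those of the deposited scale.

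For lists of genes, each gene is given by the brightest of its probe sets. Of 5478 such genes tested, 9.55% were called higher and 14.3% lower, with a median change of 0.02, and the counts below are to be read against these shares. The lists and their members were chosen with earlier results of these data known, so a share above the background may partly follow from that choice. The 10 largest rises and 10 largest falls were picked among called genes whose arrays do not overlap. For those genes the lack of overlap described below follows from the choice.

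**Figure D2:**
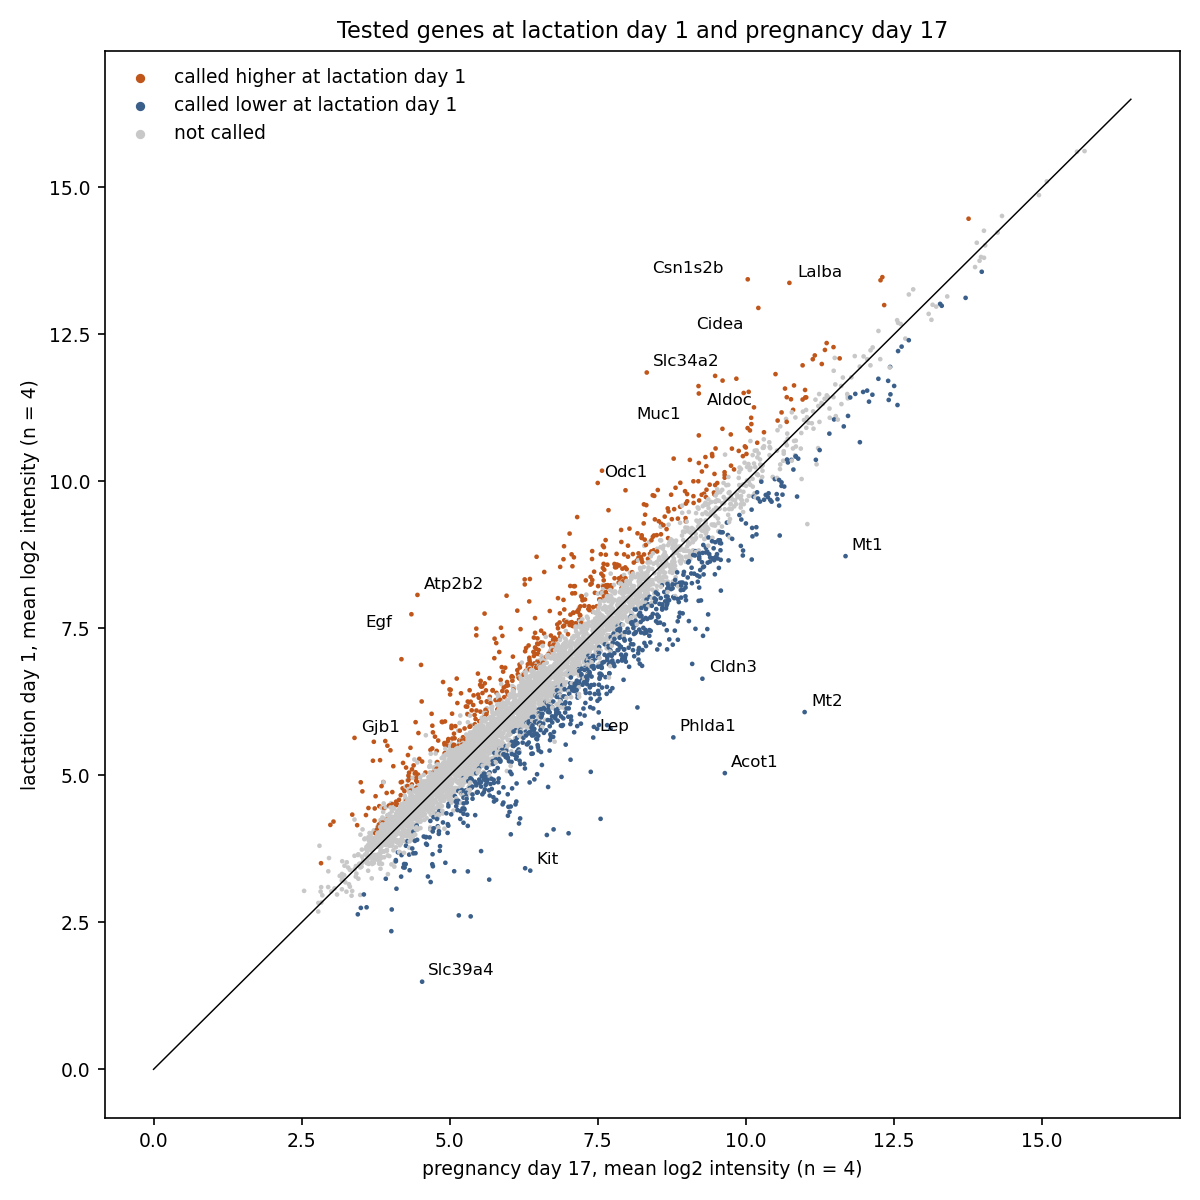
Mean log2 intensity of the 5478 tested genes at lactation day 1 (y axis) against pregnancy day 17 (x axis), 4 arrays each, with the diagonal as the line of equal levels. Named genes above the line (Atp2b2, Slc34a2, Csn1s2b, Egf, Cidea, Lalba) rose by 2.64 to 3.61, and Mt2 and Acot1 lie farthest below it, with changes of -4.92 and -4.61.

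Secreted milk products split into genes that rose steeply and genes that stayed close to levels already reached before birth. Lalba encodes alpha-lactalbumin, the cofactor that turns a Golgi galactosyltransferase into lactose synthase. Its log2 values were 13.34, 13.60, 13.40 and 13.16 in the lactation day 1 arrays and 11.07, 10.20, 10.56 and 11.11 in the pregnancy day 17 arrays. The lowest day 1 value lay above the highest day 17 value, and the change was 2.64 ± 0.47 (SE), or 6.24-fold (adjusted p = 0.000331). Csn1s2b, a calcium-sensitive casein, read 13.85, 13.29, 13.25 and 13.36 at lactation day 1 and 10.72, 10.00, 9.44 and 9.98 at pregnancy day 17. It rose by 3.41 ± 0.31, or 10.6-fold (adjusted p = 1.82e-07), with no overlap between stages.

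The other 4 caseins were not called. Csn3, the gene of the micelle-stabilising kappa-casein, averaged 14.26 ± 0.09 at lactation day 1 and 14.02 ± 0.21 at pregnancy day 17 (adjusted p = 0.105), Csn1s2a 14.51 ± 0.03 at lactation day 1 and 14.32 ± 0.11 at pregnancy day 17 (adjusted p = 0.150), and Csn1s1 15.10 ± 0.06 at lactation day 1 and 15.08 ± 0.10 at pregnancy day 17 (adjusted p = 0.864). Wap and Glycam1, a mucin-like milk protein, changed by -0.10 and 0.02. The highest value of the whole table is 15.84 in log2, and whether genes this near it could register a further rise was not tested. Between pregnancy days 12 and 17, which shares the day 17 arrays, all 5 caseins were called higher at day 17, against 18.4% of probe sets higher and 45.1% called in either direction.

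Egf encodes epidermal growth factor, a peptide of milk. Its values were 8.23, 7.47, 7.32 and 7.94 at lactation day 1 and 4.56, 4.26, 4.10 and 4.49 at pregnancy day 17. Every day 1 value exceeded every day 17 value, and the change was 3.39 ± 0.18, or 10.5-fold (adjusted p = 9.91e-11). The day 17 values lay close to the filter line, with replicate 3 below it, and averaging all probe sets of Egf gave a smaller change of 1.72. Folr1, a folate-binding protein found in milk, rose by 0.90 (adjusted p = 0.000494). These 2 and Lalba were the called genes of the 14 tested in the list of whey and other secreted milk proteins, whose median change was 0.22. Lcn2, an iron-sequestering protein of milk, averaged 12.74 ± 0.20 at lactation day 1 and 12.55 ± 0.24 at pregnancy day 17, within the spread of the arrays (adjusted p = 0.557).

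Mineral transport supplied the 2 largest rises among all tested genes. Atp2b2, the calcium pump of the apical membrane of milk-secreting cells, read 8.43, 8.26, 7.54 and 8.05 at lactation day 1 and 4.71, 4.49, 4.28 and 4.33 at pregnancy day 17, close to the filter line. It rose by 3.61 ± 0.18, or 12.2-fold (adjusted p = 4.18e-11), and by 2.91 when 16 was added to the values. Slc34a2, a sodium-phosphate cotransporter, read 11.97, 11.66, 11.64 and 12.14 at lactation day 1 and 8.48, 8.40, 8.16 and 8.27 at pregnancy day 17. Its stages did not overlap, with a change of 3.53 ± 0.26, or 11.5-fold (adjusted p = 1.27e-08). Atp2c1, a Golgi calcium pump, averaged 7.26 ± 0.46 at lactation day 1 and 7.30 ± 0.24 at pregnancy day 17 and was not called (adjusted p = 0.910). Car4, a membrane-bound carbonic anhydrase, rose by 2.61 on its probe set of highest mean (10.18 ± 0.42 at lactation day 1, 7.57 ± 0.27 at pregnancy day 17, adjusted p = 2.56e-06), while a dimmer probe set of the gene changed by 0.34 and was not called (adjusted p = 0.52).

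**Figure D3:**
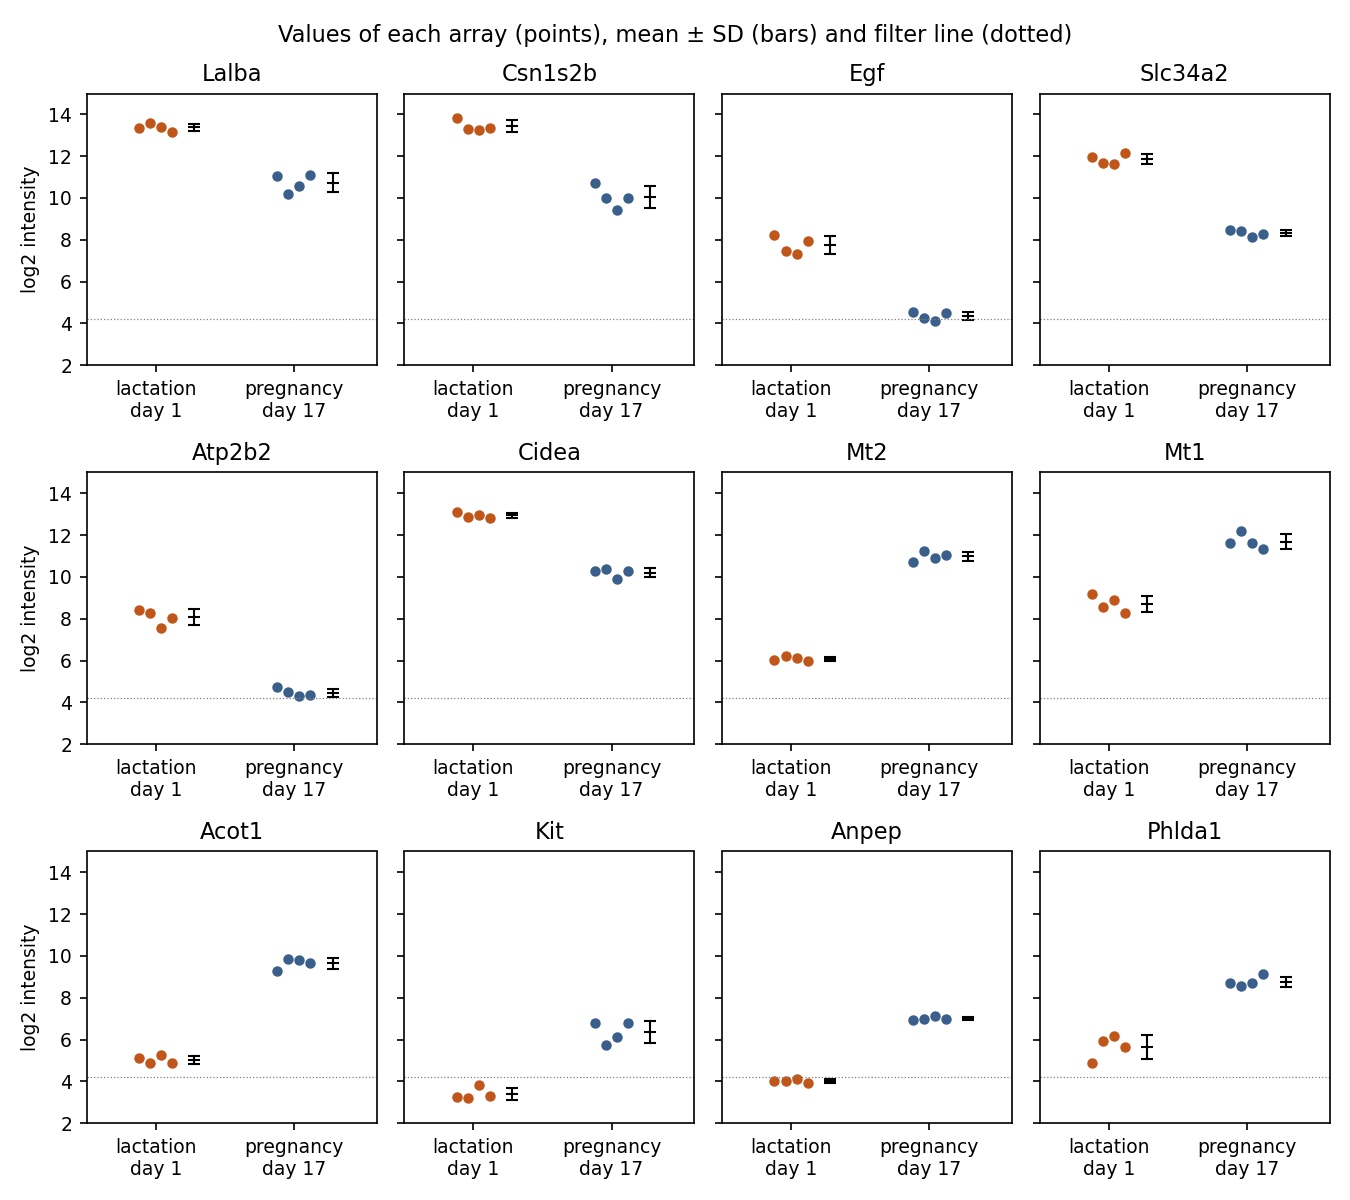
Log2 intensity of 12 named genes in each array (points, lactation day 1 left and pregnancy day 17 right) with the mean ± SD of 4 arrays beside them and the filter line dotted. These 12 genes were picked from the largest changes among called genes whose stages do not overlap, so the lack of overlap follows from the choice. Kit and Anpep lie below the filter line at lactation day 1.

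Genes of milk fat globule secretion rose in part. Of 11 tested members, 5 rose and 2 fell, with a median of 0.44. Cidea, a lipid droplet protein best known from brown fat that also acts in milk fat secretion, read 13.12, 12.89, 12.96 and 12.84 at lactation day 1 and 10.28, 10.38, 9.88 and 10.30 at pregnancy day 17. It rose by 2.74 ± 0.20, or 6.68-fold (adjusted p = 8.71e-09). Muc1, an apical mucin carried on the globule, averaged 11.50 ± 0.40 at lactation day 1 and 9.21 ± 0.18 at pregnancy day 17, a rise of 2.29 (adjusted p = 4.08e-08). Btn1a1 (butyrophilin) rose by 1.17 and Xdh (xanthine oxidoreductase), which together form the globule coat, by 1.00, and Rab18, a GTPase of lipid droplets, by 0.95. Plin2, the protein that coats storage droplets, fell by 0.69 (11.71 ± 0.13 at lactation day 1, 12.40 ± 0.13 at pregnancy day 17, adjusted p = 0.000235), and Anxa1, an annexin, fell by 1.44. Fabp3, a fatty acid carrier abundant in the lactating gland, averaged 14.01 ± 0.10 at lactation day 1 and 14.04 ± 0.06 at pregnancy day 17.

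The pathway that turns citrate into fatty acid rose. Of 12 tested genes 8 were higher and the other 4 were not called, with a median of 0.77 against 0.02 for all genes. Slc25a1, which carries citrate out of mitochondria, averaged 11.75 ± 0.22 at lactation day 1 and 9.84 ± 0.13 at pregnancy day 17, a rise of 1.91 (adjusted p = 2.57e-05). Acly, which cleaves that citrate to acetyl-CoA, read 13.44, 13.43, 13.44 and 13.38 at lactation day 1 and 12.29, 12.02, 12.34 and 12.45 at pregnancy day 17. The day 1 arrays lay close together and wholly above those of day 17, with a change of 1.15 ± 0.12, or 2.22-fold (adjusted p = 1.66e-06). Fasn, the synthase itself, read 13.17, 13.11, 13.37 and 13.07 at lactation day 1 and 12.91, 12.52, 12.67 and 12.91 at pregnancy day 17. Its stages did not overlap either, and its change of 0.43 ± 0.15 lay at the threshold (adjusted p = 0.0504). Over the alternatives run its adjusted p lay between 0.00163 and 0.162, and it was called higher under 10 of them.

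Elongation and desaturation genes rose as well. Elovl5, an elongase of unsaturated fatty acids, averaged 11.79 ± 0.07 at lactation day 1 and 9.48 ± 0.26 at pregnancy day 17, a change of 2.31 (4.97-fold, adjusted p = 3.09e-09). Scd2, a desaturase, rose by 2.11 and Fads1, which desaturates polyunsaturated fatty acids, by 0.92. Scd1, another desaturase, rose by 0.71 (adjusted p = 0.0160), a call lost without pregnancy day 17 replicate 1, and a dimmer probe set changed by -0.22 without a call. Thrsp, a lipogenic nuclear protein also called Spot 14, averaged 12.28 ± 0.28 at lactation day 1 and 11.48 ± 0.09 at pregnancy day 17 and rose by 0.80 (adjusted p = 0.00223). Srebf1, the transcription factor of lipogenic genes, read 10.17, 10.46, 10.63 and 10.60 at lactation day 1 and 9.20, 9.42, 9.58 and 9.52 at pregnancy day 17. It rose by 1.04 ± 0.18, or 2.05-fold (adjusted p = 0.000312), and Mlx, a partner of the carbohydrate response factor, by 0.63; these were the called genes among 7 lipid regulators tested.

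Cholesterol synthesis rose along most of its length. Of 16 tested genes 13 were called higher, and the remaining Hmgcs1, Mvk and Hsd17b7 had positive changes that were not called. The median was 0.99. Fdps, which makes farnesyl diphosphate, averaged 9.85 ± 0.37 at lactation day 1 and 7.97 ± 0.42 at pregnancy day 17 and rose by 1.88 (adjusted p = 7.52e-05). Sqle, the squalene epoxidase, rose by 1.62 and Lss, which closes the sterol rings, by 1.65. Among the later steps Msmo1 rose by 1.66, Nsdhl by 1.73, Cyp51 by 1.04 and Dhcr7, the last enzyme of the route, by 1.21, the last of these with overlapping arrays (adjusted p = 0.00626). Nsdhl has a dimmer probe set that was not called (0.31). Hmgcs1, at the entry of the pathway, averaged 7.86 ± 0.33 at lactation day 1 and 7.18 ± 0.45 at pregnancy day 17 (adjusted p = 0.152). Without lactation day 1 replicate 1, 12 of the 16 were called higher; the call lost was that of Idi1.

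Fatty acid breakdown fell. Of 20 tested beta oxidation genes 13 were lower and 7 were not called, with a median of -0.72. Acot1, a cytosolic thioesterase that splits acyl-CoA, read 5.12, 4.89, 5.26 and 4.89 at lactation day 1 and 9.26, 9.84, 9.81 and 9.67 at pregnancy day 17. The arrays of the 2 stages lay far apart, and the change was -4.61 ± 0.23, a 24.4-fold lower level (adjusted p = 6.79e-11). Cpt1a, which admits fatty acids to mitochondria, read 4.03, 3.99, 3.94 and 4.03 at lactation day 1, below the filter line, and 5.95, 6.84, 5.73 and 5.61 at pregnancy day 17 (adjusted p = 6.98e-06).

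The enzymes of the mitochondrial spiral fell by less. Acaa2, a thiolase, read 7.08, 7.22, 7.14 and 7.12 at lactation day 1 and 8.27, 8.49, 8.66 and 8.60 at pregnancy day 17. It fell by 1.36 (adjusted p = 2.31e-06) without overlap. Eci2, an enoyl-CoA isomerase, fell by 1.32, Acadl and Acadm, dehydrogenases of long and medium chains, fell by 1.27 and by 0.74, and Hadhb, of the trifunctional protein, fell by 0.74. Cpt2, the inner membrane transferase, fell by 1.37 on the probe set of highest mean, while a dimmer one near background changed by 0.18 (adjusted p = 0.52). Etfa, which passes electrons from these dehydrogenases, averaged 8.74 ± 0.33 at lactation day 1 and 8.61 ± 0.32 at pregnancy day 17 and was not called. Between pregnancy days 12 and 17, 12 of the 20 had been lower at day 17, against 26.7% of probe sets; the comparisons share the day 17 arrays. Sums of adipocyte markers overlapped between the stages, at 10458 to 15946 intensity units at lactation day 1 and 10785 to 12387 at pregnancy day 17. That sum includes the bright gene Lpl, which rose, as described below. The median change of the adipocyte markers was -0.44, with 9 of 12 tested genes below 0. Sums of fibroblast markers did not overlap, and the part of either cell type in the result was not tested.

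In fatty acid supply, Lpl, the lipase that frees fatty acids from blood lipoproteins, read 12.75, 12.86, 13.20 and 13.19 at lactation day 1 and 12.32, 12.21, 12.53 and 12.28 at pregnancy day 17. It rose by 0.66 ± 0.14, or 1.58-fold (adjusted p = 0.00172). Dbi, the acyl-CoA binding protein, fell by 0.96 (adjusted p = 9.85e-06). In triglyceride synthesis Agpat1, which adds the second acyl chain to glycerol phosphate, rose by 0.65, and Gpam, which adds the first, changed by -0.09 (adjusted p = 0.682).

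Glucose supply for lactose changed at its entry. Slc2a1, the basal glucose transporter, read 7.51, 7.20, 7.57 and 7.66 at lactation day 1 and 6.20, 6.01, 6.49 and 6.09 at pregnancy day 17. It rose by 1.29 ± 0.21, or 2.45-fold (adjusted p = 0.000172). B4galt1, the galactosyltransferase that alpha-lactalbumin modifies, averaged 9.20 ± 0.35 at lactation day 1 and 9.21 ± 0.31 at pregnancy day 17 (adjusted p = 0.980), and Hk1, a hexokinase, 11.45 ± 0.19 at lactation day 1 and 11.72 ± 0.07 at pregnancy day 17 (adjusted p = 0.0764). Slc2a1 and Lalba were the called genes among 13 tested. In glycolysis Aldoc, an aldolase, averaged 11.62 ± 0.21 at lactation day 1 and 9.20 ± 0.30 at pregnancy day 17, a rise of 2.42 (5.36-fold, adjusted p = 2.77e-09). Pgam1 and Ldha rose by 0.52 and 0.43, and Pkm, pyruvate kinase, averaged 10.81 ± 0.23 at lactation day 1 and 10.70 ± 0.11 at pregnancy day 17 and was not called, while a dimmer probe set of Pkm rose by 0.40 (adjusted p = 0.0268).

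Around pyruvate the called genes went both ways, 4 higher and 6 lower of 21 tested, and the list median of -0.23 became 0.10 under equal ribosomal medians. Pdk4, the kinase that shuts pyruvate dehydrogenase, fell by 1.50 (4.93 ± 0.54 at lactation day 1, 6.43 ± 0.46 at pregnancy day 17, adjusted p = 0.00366). Of the dehydrogenase itself, Pdhb rose by 0.82 (adjusted p = 7.45e-05) and Pdha1 fell by 0.74 (adjusted p = 0.000199). Pcx, which makes oxaloacetate from pyruvate, rose by 0.66 and Cs, citrate synthase, by 0.56. Idh2, a mitochondrial isocitrate dehydrogenase, fell by 0.68. In the respiratory chain 2 genes rose and 3 fell of 24 tested, with a median of 0.03.

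Amino acid carriers also moved both ways, with 3 called higher and 2 lower of 7 tested. Their median of -0.20 turned to 0.13 with ribosomal medians set equal. The called falls were those of Slc1a5, with a change of -0.80, and Slc6a6, with -0.60 on its probe set of highest mean. A dimmer probe set of Slc6a6 changed by -0.11 and was not called. Slc38a2, a transporter of small neutral amino acids, rose by 1.34 (9.76 ± 0.52 at lactation day 1, 8.43 ± 0.59 at pregnancy day 17, adjusted p = 0.00286), and Slc1a4, for alanine, serine and cysteine, by 1.26 (adjusted p = 8.68e-05). Slc7a7, a partner of the cationic amino acid system, rose by 0.89. Slc7a5, the large neutral amino acid carrier, averaged 9.27 ± 0.21 at lactation day 1 and 9.46 ± 0.14 at pregnancy day 17 (adjusted p = 0.491). It was called higher at lactation day 2 than at lactation day 1, by 0.84 (adjusted p = 0.00753).

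Endoplasmic reticulum genes of folding and translocation rose together. Of 21 tested members 10 were higher and the other 11 were not called, with a median of 0.46. Creld2, a secreted factor and foldase of the stressed reticulum, read 5.57, 6.70, 6.88 and 6.69 at lactation day 1 and 4.89, 5.27, 5.12 and 4.70 at pregnancy day 17. It rose by 1.46 ± 0.26, or 2.76-fold (adjusted p = 0.000350), with replicate 1 the lowest of the day 1 arrays. Hspa5, the chaperone BiP, read 11.24, 12.43, 12.60 and 12.30 at lactation day 1 and 10.88, 10.80, 11.74 and 11.24 at pregnancy day 17. Here replicate 1 fell among the day 17 arrays and the other 3 day 1 arrays lay above them, with a change of 0.98 ± 0.26 (adjusted p = 0.00853). Dnajc3, a cochaperone of BiP, rose by 1.10, Pdia6, a disulfide isomerase, by 1.04, Ssr1, of the translocon-associated complex, by 1.08, and Atf4, a transcription factor of the stress response, by 0.46.

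Lactation day 1 replicate 1 lowered the count. Without it 14 of the 21 were called higher, among them Pdia3, a glycoprotein disulfide isomerase, which read 8.90 in that array against 10.46, 10.50 and 10.44 in the other day 1 arrays and 9.52, 9.25, 10.47 and 9.59 at pregnancy day 17. Xbp1, the transcription factor of the unfolded protein response, rose by 0.51 (adjusted p = 0.0341), a call lost without any of 6 of the 8 arrays: pregnancy day 17 replicates 1, 2 and 4 and lactation day 1 replicates 2, 3 and 4. By lactation day 2 the list's median change from day 1 was -0.33; that step shares the day 1 arrays.

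The promoters of these genes were searched for the endoplasmic reticulum stress element on either strand, which reads CCAAT, 9 bases of any kind and CCACG, to which the stress factors ATF6 and XBP1 are known to bind with the factor NF-Y. The RefSeq promoter table (build GRCm38.p6) gives 250 bases before and 50 after each gene's start. The element was found for 37 of 27025 genes (0.137%), for 7 of the 22 list members with a promoter in the table, and for 4 of the 9 such members called higher: Hspa5, Pdia6, Dnajc3 and Creld2. Ero1b, an endoplasmic reticulum oxidase described further on, also held it. The matches and 25 bases to each side are printed 5′ to 3′ along the plus strand, on which all 5 genes lie. They are the called genes with the element in this list and among the genes highest at lactation day 1, described below. Genes outside these groups that hold the element were not compared with the calls. Capitals mark the element, which reads on the opposite strand in Creld2 and Ero1b. The windows are chr2:34772000-34772068 for Hspa5, chr12:17266466-17266534 for Pdia6, chr14:118937802-118937870 for Dnajc3, chr15:88819495-88819563 for Creld2 and chr13:12565657-12565725 for Ero1b. A match describes the sequence and is not evidence of binding here.
Hspa5: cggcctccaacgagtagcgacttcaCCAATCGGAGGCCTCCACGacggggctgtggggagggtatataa
Pdia6: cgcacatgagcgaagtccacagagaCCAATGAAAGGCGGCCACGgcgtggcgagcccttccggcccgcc
Dnajc3: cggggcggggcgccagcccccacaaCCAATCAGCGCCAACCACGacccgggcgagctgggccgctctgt
Creld2: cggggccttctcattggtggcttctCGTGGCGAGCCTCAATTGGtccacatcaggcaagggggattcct
Ero1b: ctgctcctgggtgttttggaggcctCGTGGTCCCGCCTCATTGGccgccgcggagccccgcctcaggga

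Some genes stood higher at lactation day 1 than at any other stage. For 33 genes (0.602% of 5478) all 4 day 1 arrays lay above all 16 arrays of the other stages, and for 29 (0.529%) below them. Because they were chosen this way, their fall at lactation day 2 is a consequence of the choice, and they are described with no test of it. Ero1b averaged 7.37 ± 0.31 at lactation day 1 and 5.89 ± 0.25 at pregnancy day 17, and its stage means in time order, which runs from pregnancy day 12 through day 17 to lactation days 1, 2 and 9, were 5.00, 5.89, 7.37, 6.28 and 6.11. Mgat2, a Golgi enzyme of N-glycan branching, averaged 6.21, 7.09, 8.22, 7.13 and 6.82 over the same stages. Ift20, a carrier of cargo between Golgi and cilium, averaged 6.40, 7.60, 8.60, 7.65 and 7.26.

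Further genes of the secretory route among the 33 were chosen after their values were seen. They include Wfs1, a reticulum membrane protein, Slc35b1, a nucleotide exchanger of the reticulum, Kdelr3, a retrieval receptor, Sec63, of the translocon, Ostc, of the oligosaccharyltransferase, and Tmed4, a cargo receptor. Of these, Ostc was not called against pregnancy day 17. The 33 also held other genes, among them Tmem185a, Yars and Cox7b, which are not described further. Cry1, a repressor of the circadian clock, averaged 7.25 ± 0.58 at lactation day 1 against 5.79 ± 0.28 at pregnancy day 17 on its probe set of highest mean, with 2 dimmer probe sets not called. Timm8b, of mitochondrial import, averaged 7.99 ± 0.18 at lactation day 1 against 6.92 ± 0.13 at pregnancy day 17. Genes lowest at day 1 included Fkbp5, a glucocorticoid-induced immunophilin, with stage means of 6.74, 6.50, 5.90, 6.81 and 8.73 in time order, and Stat3, a cytokine-activated transcription factor, with 7.16, 7.01, 6.14, 6.89 and 6.69.

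**Figure D4:**
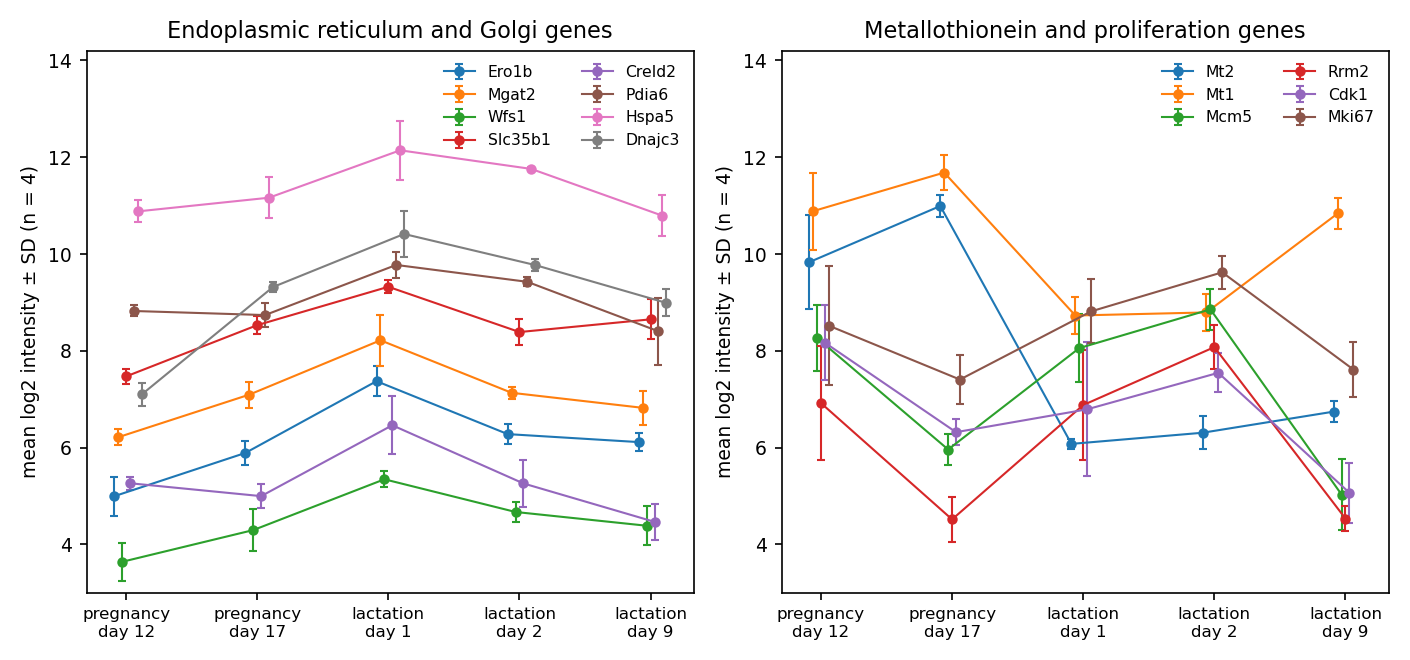
Mean log2 intensity ± SD (4 arrays per stage) of secretory pathway genes (left) and of metallothionein and proliferation genes (right) over the 5 chow stages in time order. Ero1b, Mgat2, Wfs1 and Slc35b1 peak at lactation day 1; Mt2 drops at that stage and Rrm2 and Mcm5 are high again after a low at pregnancy day 17.

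Further along the route, vesicle traffic genes split, with 4 higher and 2 lower of 19 tested and a median of -0.02 that turned to 0.31 under equal ribosomal medians. Lman1, a cargo receptor that leaves the reticulum, rose by 1.01 (adjusted p = 0.000151) and Rab1a, a GTPase of reticulum to Golgi traffic, by 0.86 (adjusted p = 0.000494). Vamp8, a SNARE of regulated exocytosis, read 9.21, 9.21, 9.30 and 9.16 at lactation day 1 and 10.24, 10.27, 10.03 and 10.16 at pregnancy day 17. It fell by 0.96 (adjusted p = 9.30e-05), without overlap. Stx3, an apical SNARE, fell by 1.23 on its probe set of highest mean, and a dimmer set changed by 0.08 (adjusted p = 0.55).

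Ribosomal protein genes were lower by a small amount. Of 14 tested 10 were called lower, with a median of -0.34, and Rplp0, of the ribosomal stalk, averaged 13.57 ± 0.04 at lactation day 1 and 13.98 ± 0.06 at pregnancy day 17 (adjusted p = 0.00107). Setting ribosomal medians equal brings this median to -0.01 by construction. Among 26 proteasome genes 7 fell, with a median of -0.13 that turned to 0.20 under that scaling. The larger falls were in subunits of the immunoproteasome, the form that makes peptides for antigen display: Psmb9 fell by 1.08, Psmb8 by 1.06 and Psmb10 by 0.82.

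Replication genes were higher in number beyond the background, and 1 mitosis gene was called. Of 17 tested replication genes 9 were called higher, with a median of 0.75. Mcm5, a subunit of the replicative helicase, read 8.98, 8.20, 7.41 and 7.63 at lactation day 1 and 5.49, 6.08, 6.05 and 6.22 at pregnancy day 17. It rose by 2.10 ± 0.38, or 4.27-fold (adjusted p = 0.000425). Rrm2, which makes deoxynucleotides, read 8.35, 7.10, 5.67 and 6.39 at lactation day 1 and 4.12, 4.23, 4.56 and 5.16 at pregnancy day 17. Replicate 1 is the highest array for both genes, and the other 3 day 1 arrays still lie above all day 17 arrays. Fen1, a flap nuclease, rose by 2.16, Pcna, the sliding clamp, by 1.30 and Rfc4, of the clamp loader, by 1.35. Without lactation day 1 replicate 1, 7 of the 17 were called higher, the calls of Tk1 and Chaf1b being lost. Between pregnancy days 12 and 17, 16 of the 17 were called lower at day 17, against 26.7% of probe sets. Both comparisons share the day 17 arrays, so low values in those arrays enter both changes.

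Among 20 mitosis genes Mki67 was the sole call, higher by 1.41 (adjusted p = 0.0317), and it was lost without either of replicates 1 and 2 of both stages. Ccnb2, a mitotic cyclin, read 7.13, 5.43, 4.38 and 5.35 at lactation day 1 and 5.78, 6.75, 6.83 and 7.72 at pregnancy day 17. Cdc20, which triggers anaphase, read 7.41, 5.32, 4.21 and 4.69 at lactation day 1 and 5.66, 5.92, 6.17 and 6.41 at pregnancy day 17. In both genes replicate 1 lies with or above the day 17 arrays and the other day 1 arrays lie below them. Without it, 5 mitosis genes were called lower: Ccnb2 by -1.72, Cdc20 by -1.30, Cks2 by -1.11, Birc5 by -1.07, and Prc1. The remaining day 1 values of Prc1, 3.18, 3.09 and 3.68, lay under the filter line, so no size is given. The list median of 0.19 ran from -0.15 to 0.25 as single arrays were left out. Ccnd1, a cyclin of entry to the cycle, rose by 1.57 (7.33 ± 0.22 at lactation day 1, 5.76 ± 0.49 at pregnancy day 17, adjusted p = 0.00237).

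Early response genes fell. Of 21 tested 10 were called lower, with a median of -0.51, and 7 without lactation day 1 replicate 1. Phlda1, a growth-factor-induced gene, read 4.86, 5.91, 6.15 and 5.66 at lactation day 1 and 8.72, 8.55, 8.72 and 9.11 at pregnancy day 17. It fell by 3.13 ± 0.32, an 8.75-fold lower level (adjusted p = 7.60e-07), with a gap of more than 2 between the stages. Klf10 and Klf6, zinc finger factors, fell by 1.77 and by 1.66, Btg2, an antiproliferative gene, by 1.03 and Junb, of the AP-1 complex, by 0.97. Zfp36, which destabilises mRNAs, averaged 5.94 ± 0.17 at lactation day 1 and 5.84 ± 0.12 at pregnancy day 17 and was not called. Under equal ribosomal medians 5 of the list were called lower and 4 higher.

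Junction genes changed in composition. Of 16 tested 2 rose and 6 fell, with a median of -0.34 that turned to 0.12 under equal ribosomal medians. Cldn3, a claudin of tight junctions, read 6.44, 6.40, 6.79 and 6.94 at lactation day 1 and 9.47, 9.02, 9.01 and 9.56 at pregnancy day 17. It fell by 2.62 ± 0.24, a 6.16-fold lower level (adjusted p = 1.87e-07). Cldn4, a claudin of the same chromosome region, averaged 2.62 ± 0.06 at lactation day 1, below the filter line, and 5.15 ± 0.44 at pregnancy day 17 (adjusted p = 1.43e-07). Cldn8, another claudin, went the other way and rose by 1.19, at 8.22 ± 0.27 at lactation day 1 against 7.04 ± 0.19 at pregnancy day 17 (adjusted p = 2.31e-06). Cldn7 averaged 7.98 ± 0.31 at lactation day 1 and 7.79 ± 0.03 at pregnancy day 17 and was not called.

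The connexins of gap junctions split likewise. Gjb1, which encodes connexin 32, read 5.99, 5.88, 5.22 and 5.47 at lactation day 1 and 3.25, 3.16, 3.92 and 3.24 at pregnancy day 17, below the filter line in all 4 (adjusted p = 2.32e-07). It was called higher again at lactation day 2 than at day 1, by 0.97 (adjusted p = 0.00563). Gjb2, which encodes connexin 26, read 10.80, 11.62, 11.47 and 11.30 at lactation day 1 and 12.48, 12.41, 12.65 and 12.70 at pregnancy day 17. It fell by 1.26 ± 0.21, a 2.40-fold lower level (adjusted p = 0.000237). Gja1, connexin 43, fell by 0.89 on its probe set of highest mean, and a dimmer one changed by -0.04 (adjusted p = 0.89).

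Luminal markers fell in 7 of 14 tested genes and rose in 1, Muc1; their median of -0.48 turned to 0.03 under equal ribosomal medians. Kit, a receptor kinase of luminal progenitors, read 3.24, 3.19, 3.81 and 3.28 at lactation day 1, under the filter line, and 6.79, 5.73, 6.12 and 6.80 at pregnancy day 17 (adjusted p = 5.10e-09). Krt7, a keratin, averaged 4.18 ± 0.11 at lactation day 1, also under it, and 6.17 ± 0.54 at pregnancy day 17 (adjusted p = 9.44e-06), and Krt8 fell by 0.90 (adjusted p = 5.34e-06). Elf5, a transcription factor of alveolar fate, averaged 11.39 ± 0.23 at lactation day 1 and 11.18 ± 0.24 at pregnancy day 17 (adjusted p = 0.289). The summed intensity of the luminal markers overlapped between the stages, at 8149 to 9294 intensity units at lactation day 1 and 7697 to 8477 at pregnancy day 17. The brightest genes weigh most in such a sum, which here includes the rising Muc1. The sum without Muc1 was not taken.

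Myoepithelial markers, of the contractile cells that eject milk, fell in 4 of 9 tested genes with a median of -0.37. Mylk, myosin light chain kinase, fell by 1.41 (7.62 ± 0.20 at lactation day 1, 9.04 ± 0.29 at pregnancy day 17, adjusted p = 0.000529), and Tagln and Acta2, smooth muscle proteins, fell by 0.87 and by 0.81. Their summed intensity was 3212 to 4545 at lactation day 1 and 6022 to 6990 at pregnancy day 17, without overlap.

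Mt2 had the largest fall of all tested genes, and Mt1 fell with it. Mt2, which encodes a zinc and copper binding protein, read 6.01, 6.21, 6.10 and 5.99 at lactation day 1 and 10.73, 11.26, 10.92 and 11.06 at pregnancy day 17. It fell by 4.92 ± 0.31, a 30.2-fold lower level (adjusted p = 1.61e-09), with a day 1 spread of 0.10 (SD). Mt1, its neighbour on chromosome 8, read 9.18, 8.56, 8.88 and 8.30 at lactation day 1 and 11.61, 12.19, 11.60 and 11.33 at pregnancy day 17. It fell by 2.95 ± 0.31, a 7.75-fold lower level (adjusted p = 9.75e-07). Over the 5 stages, in the same time order, Mt1 averaged 10.89, 11.68, 8.73, 8.79 and 10.84, and Mt2 9.83, 10.99, 6.08, 6.31 and 6.74; the difference between them was not tested. Mt3, known from brain, averaged 6.16 ± 0.08 at lactation day 1 and 6.27 ± 0.29 at pregnancy day 17.

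Of 9 tested metallothionein and metal carrier genes 3 rose and 4 fell, and the median of -0.12 became 0.21 under equal ribosomal medians. Slc39a8, a zinc and manganese importer, averaged 9.51 ± 0.31 at lactation day 1 and 7.68 ± 0.33 at pregnancy day 17 and rose by 1.83 (3.55-fold, adjusted p = 1.24e-06). Slc39a4, another zinc importer, which is outside that list, read 1.53, 1.46, 1.48 and 1.50 at lactation day 1, far below the filter line, and 5.53, 4.16, 4.12 and 4.32 at pregnancy day 17 (adjusted p = 6.18e-08). Tfrc, the transferrin receptor, rose by 0.80 and Slc30a4, a zinc exporter of secretory vesicles, by 0.63 on its probe set of highest mean, with a dimmer one not called (0.16).

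The metallothionein promoters were searched for the core of the metal response element, TGCACNC or TGCGCNC on either strand, to which the zinc-sensing factor MTF-1 is known to bind. So short a motif was found for 28.2% of the genes in the promoter table, for Mt2 with 4 matches and for Mt1 with 3. It was found for 9 of the 11 list members with a promoter in the table. Both 300-base promoters (RefSeq, GRCm38.p6, plus strand) are printed because these genes fell together, Mt2 at chr8:94172368-94172667 and Mt1 at chr8:94178839-94179138. Capitals mark the matches, and those that begin with GTG read on the opposite strand.
Mt2: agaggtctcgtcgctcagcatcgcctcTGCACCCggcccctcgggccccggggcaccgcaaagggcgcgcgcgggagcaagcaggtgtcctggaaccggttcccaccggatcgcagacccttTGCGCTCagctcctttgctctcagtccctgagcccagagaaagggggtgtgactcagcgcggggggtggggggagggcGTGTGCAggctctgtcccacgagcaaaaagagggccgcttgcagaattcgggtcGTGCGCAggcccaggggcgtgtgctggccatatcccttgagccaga
Mt1: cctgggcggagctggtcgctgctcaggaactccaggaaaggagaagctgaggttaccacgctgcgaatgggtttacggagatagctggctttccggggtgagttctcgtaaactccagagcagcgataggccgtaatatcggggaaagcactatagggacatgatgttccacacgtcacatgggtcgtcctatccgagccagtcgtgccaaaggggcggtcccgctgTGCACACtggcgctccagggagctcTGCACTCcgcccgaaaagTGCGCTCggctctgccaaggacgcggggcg

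Hormone-response genes gave calls in both directions. Mt1 and Mt2 are also glucocorticoid-responsive, and in that list of 11 tested genes 1 rose and 4 fell with a median of -0.66. Sgk1, a kinase induced by glucocorticoid, rose by 1.68 but with scattered day 1 values of 9.60, 8.45, 7.13 and 9.00 against 6.69, 7.06, 7.20 and 6.51 at pregnancy day 17 (adjusted p = 0.00781). The stages overlapped through day 1 replicate 3. Zbtb16, a transcription factor induced by progesterone and glucocorticoid, fell by 1.39 (adjusted p = 0.00853). Fkbp5 averaged 5.90 ± 0.22 at lactation day 1 and 6.50 ± 0.24 at pregnancy day 17 and was not called (adjusted p = 0.180). In the prolactin and Stat5 list Akt1, a kinase of insulin and prolactin signalling, rose by 0.81 (adjusted p = 1.88e-05), and Nfib, a partner factor on milk genes, and Cebpb, a factor of alveolar differentiation, fell by 0.84 and by 0.66. Stat5a, the main transducer of prolactin, averaged 8.10 ± 0.34 at lactation day 1 and 8.31 ± 0.11 at pregnancy day 17 (adjusted p = 0.522). The median of that list, -0.15, turned to 0.18 under equal ribosomal medians. Progesterone response could hardly be read, because 4 of its 15 genes were tested, and Pgr itself lay under the filter line at both stages (3.82 ± 0.05 at lactation day 1 and 3.70 ± 0.08 at pregnancy day 17).

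Other large changes came from genes outside these lists. Odc1, the ornithine decarboxylase that starts polyamine synthesis, read 10.09, 10.06, 9.75 and 10.00 at lactation day 1 and 7.38, 7.32, 7.56 and 7.74 at pregnancy day 17, a rise of 2.47 ± 0.17 or 5.56-fold (adjusted p = 4.62e-09). Mfsd4a, a putative solute carrier, averaged 6.98 ± 0.03 at lactation day 1 and 4.19 ± 0.27 at pregnancy day 17, where it lay just under the filter line (adjusted p = 4.18e-11). Anpep, an aminopeptidase of cell surfaces, averaged 4.01 ± 0.09 at lactation day 1, under that line, and 7.01 ± 0.08 at pregnancy day 17 (adjusted p = 2.16e-09). Plscr2, a phospholipid scramblase family member, fell by 3.29, a 9.76-fold lower level. Ubd, a ubiquitin-like modifier, averaged 3.42 ± 0.09 at lactation day 1, under the filter line, against 6.27 ± 0.61 at pregnancy day 17. Cd276, an immune checkpoint ligand, was under it too, at 2.60 ± 0.47 at lactation day 1 against 5.35 ± 0.68 at pregnancy day 17.

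The next stage brought few further calls among the largest changes. Of the 10 largest rises and 10 largest falls, 1 was called between lactation days 2 and 1, Mfsd4a at 0.56 (adjusted p = 0.0116), against 14.3% of all probe sets (6.10% higher and 8.18% lower at day 2). The changes of the 20 at that step ran from -0.21 to 1.37, the highest being that of Lalba (adjusted p = 0.0547). Both comparisons share the lactation day 1 arrays, so these values are set side by side. Several of the falls (Slc39a4, Kit, Anpep, Ubd and Cd276) already lay under the filter line at lactation day 1, where a further fall could hardly be called. The 20 were also chosen by their day 1 values. The count of 1 therefore does not show that these changes were complete.

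Immune genes gave calls in both directions. In the acute phase and interferon list 1 rose and 6 fell of 18 tested, with a median of -0.37. Tap1, the peptide transporter of antigen display, fell by 1.11 (4.80 ± 0.24 at lactation day 1, 5.91 ± 0.33 at pregnancy day 17, adjusted p = 0.000975), and H2-K1, a class I histocompatibility gene, read 11.48, 11.49, 11.47 and 11.46 at lactation day 1 and 12.12, 12.05, 12.22 and 12.16 at pregnancy day 17. It fell by 0.66 ± 0.08 (adjusted p = 4.61e-06). Gbp2, an interferon-induced GTPase, fell by 0.88 and Hp, haptoglobin, by 1.22, the last with overlapping arrays. Lbp, which binds bacterial lipopolysaccharide, rose by 1.11 (10.31 ± 0.19 at lactation day 1, 9.21 ± 0.18 at pregnancy day 17, adjusted p = 0.000848).

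Immunoglobulin genes rose in 3 of 8 tested, with a median of 0.38. Igha, the heavy chain of IgA, read 9.48, 11.24, 10.85 and 9.97 at lactation day 1 and 9.00, 8.64, 8.69 and 8.79 at pregnancy day 17. It rose by 1.61 ± 0.37 (adjusted p = 0.00332). Jchain, which joins IgA and IgM into polymers, read 5.16, 7.37, 6.93 and 6.04 at lactation day 1 and 5.39, 5.08, 5.09 and 4.47 at pregnancy day 17 (adjusted p = 0.00976). Replicate 1 is the lowest day 1 array for both, and for Jchain it lies among the day 17 arrays. Ighm, the heavy chain of IgM, rose by 1.70 on the probe set of highest mean, and 2 of its other probe sets were not called (-0.04 and -0.37). Pigr, the receptor that carries these antibodies into milk, averaged 11.09 ± 0.24 at lactation day 1 and 10.84 ± 0.39 at pregnancy day 17 (adjusted p = 0.644).

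Of 17 chemokine, interleukin and receptor genes tested 2 rose and 1 fell, with a median of 0.08. That is 17.6% called, below the 23.9% of all tested genes. Il15, a lymphocyte cytokine, and Cxcl14, an epithelial chemokine, rose by 0.91 and 0.89. Ccl9, a chemokine of myeloid cells, fell by 1.63, at 7.74 ± 0.09 at lactation day 1 and 9.36 ± 0.30 at pregnancy day 17 (adjusted p = 4.81e-06). Macrophage markers fell in 6 of 13 tested, with a median of -0.59, and in 4 without lactation day 1 replicate 1. Ctss, a lysosomal protease, and C1qc, of complement, fell by 1.12 and by 0.96. The summed macrophage markers were 1933 to 2215 at lactation day 1 and 2642 to 3442 at pregnancy day 17, without overlap. They moved in the same direction as the interferon, immunoproteasome and Ccl9 values, and their part in those results was not tested.

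Genes of cell death and remodelling fell in 5 of 21 tested, with a median of -0.27 that turned to 0.06 under equal ribosomal medians. Bcl2l1, a survival gene of the Bcl2 family, read 5.08, 4.89, 5.29 and 4.82 at lactation day 1 and 6.41, 6.65, 6.32 and 6.53 at pregnancy day 17. It fell by 1.46 ± 0.16, a 2.74-fold lower level (adjusted p = 1.41e-06). Timp2, an inhibitor of matrix proteases, fell by 1.57 (adjusted p = 0.00137), and Ctsb, a lysosomal protease, averaged 11.11 ± 0.22 at lactation day 1 and 11.52 ± 0.30 at pregnancy day 17 (adjusted p = 0.0785). Without lactation day 1 replicate 1 Ctsb was called lower, by -0.51 (adjusted p = 0.0345).

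Calls among fat and stromal markers were near the background share of all genes. Lep, the gene of leptin, read 4.79, 5.99, 6.06 and 5.73 at lactation day 1 and 7.71, 7.55, 7.14 and 7.29 at pregnancy day 17. It fell by 1.78 ± 0.27, a 3.43-fold lower level (adjusted p = 9.30e-05). Adipoq, the gene of adiponectin, read 10.49, 11.50, 11.54 and 11.23 at lactation day 1 and 11.10, 11.08, 11.37 and 10.99 at pregnancy day 17 (adjusted p = 0.885). Of 12 adipocyte markers tested 1 rose, Lpl, and 2 fell, with a median of -0.44. The brown fat list holds Cidea, its single call. Ucp1, the uncoupling protein that defines brown fat, averaged 5.68 ± 0.71 at lactation day 1 and 4.60 ± 0.29 at pregnancy day 17 (adjusted p = 0.167), and Cox8b and Elovl3 changed by 0.17 and 0.19 without a call.

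Fibroblast and matrix markers had a median of -0.43 over 25 tested genes, with 1 called higher and 4 lower. Without lactation day 1 replicate 1 a single gene stayed called, lower, and the higher call of Fbln1 was lost. Col1a1, the main collagen chain, averaged 10.29 ± 0.38 at lactation day 1 and 11.19 ± 0.10 at pregnancy day 17 (adjusted p = 0.101). The summed fibroblast markers were 9748 to 16682 at lactation day 1 and 18688 to 20012 at pregnancy day 17, without overlap. Endothelial markers had a median of 0.04 over 11 tested genes, with 1 called higher and 2 lower. Pecam1, an adhesion molecule of vessels, rose by 0.57, with pregnancy day 17 replicate 2 set off low at 6.13. Cldn5, the claudin of vessels, fell by 1.92 (adjusted p = 5.42e-06). Hepatocyte markers in sum were 847 to 1531 at lactation day 1 and 668 to 770 at pregnancy day 17. Of 6 tested 2 were called higher, with a median of 0.14. The list's Cyp2e1, which fat cells express too, rose by 0.89 (adjusted p = 0.00646). It is a bright gene that weighs heavily in that sum, and the sum without it was not taken. Sums of endothelial, lymphocyte, erythrocyte and skeletal muscle markers overlapped between the stages.

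**Figure D5:**
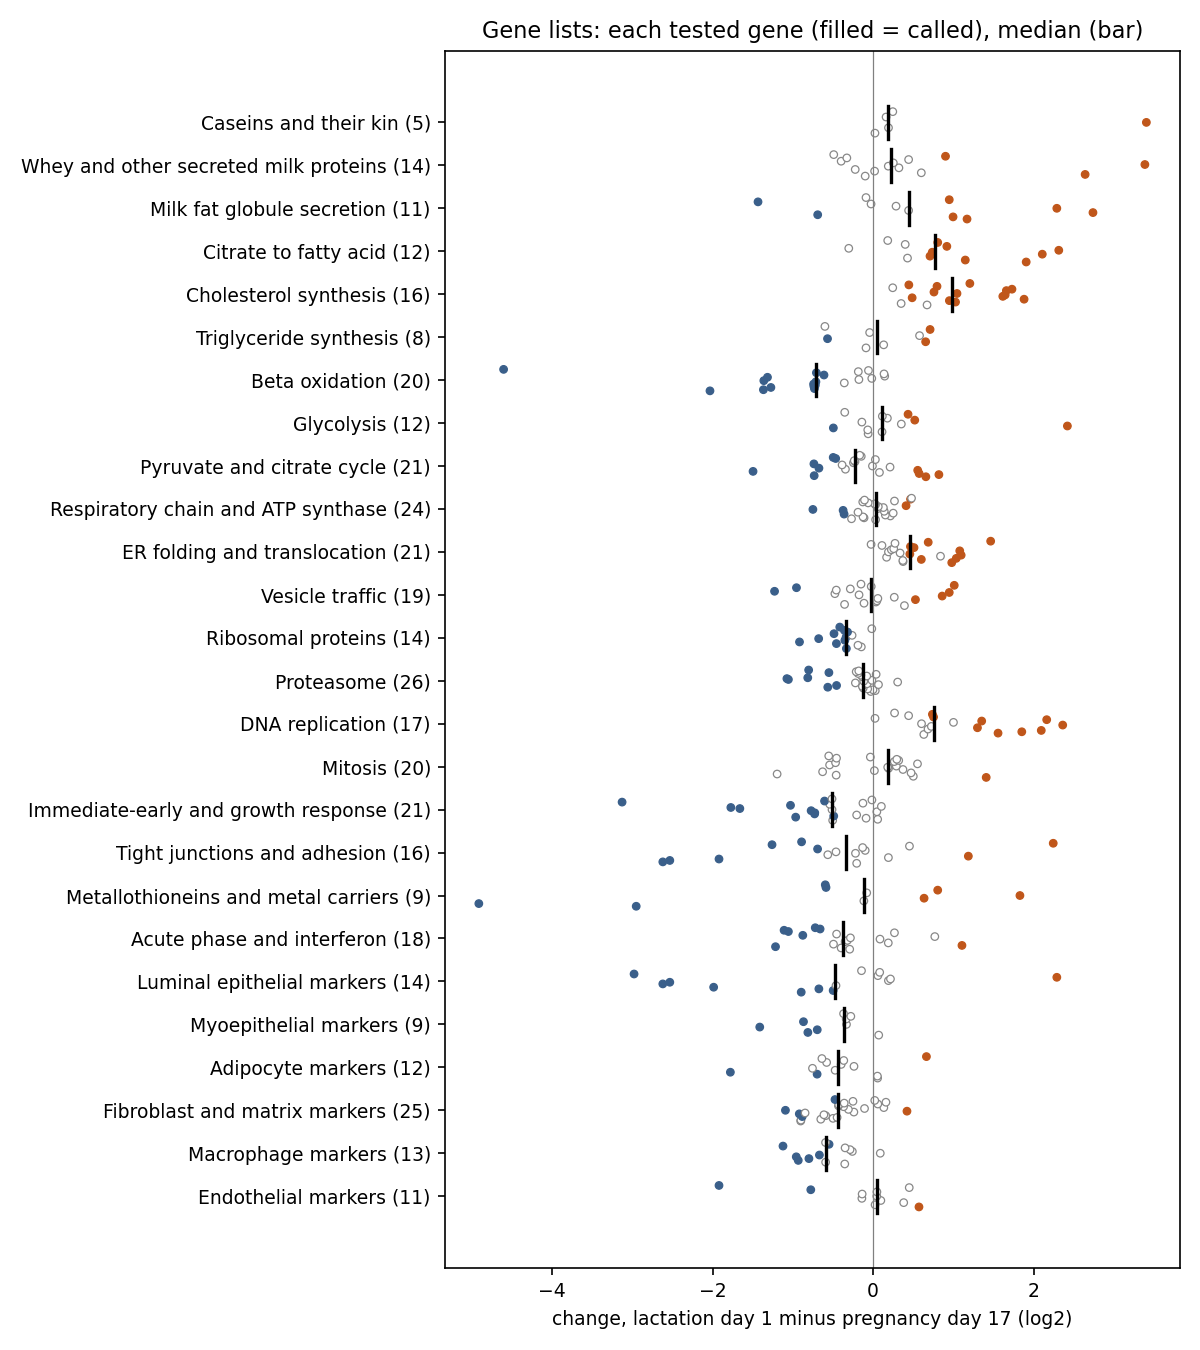
Change at lactation day 1 relative to pregnancy day 17 (log2, x axis) for each tested gene of 26 lists, filled where called, with the list median as a bar and the number of tested genes in brackets. Cholesterol synthesis (median 0.99), citrate to fatty acid (0.77) and DNA replication (0.75) lie to the right, and beta oxidation (-0.72), macrophage markers (-0.59) and early response genes (-0.51) to the left.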

How the data were processed

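Mouse mammary gland RNA was hybridised to Affymetrix probe-set arrays, 1 per sample. Per the labels' protocols, tissue kept in RNALater was homogenized, RNA was extracted with RNeasy, and about 5 µg went into biotinylated cRNA. The deposited values are linear intensities per probe set, made with GCRMA per the submitters' processing notes. GCRMA subtracts background modelled from probe sequence, so low values carry little information. It also scales arrays to each other, but array medians of the deposited values still ran from 16.9 to 21.5 over the chow stages. Whether a change shared by most genes was removed is not known. The table holds 12488 probe sets, of which 66 controls were left out. Values under 1 were set to 1 (58 values in the 8 arrays), and log2 of the deposited intensity was used.

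Stages were taken from the titles. One limma 3.58.1 fit (lmFit and eBayes, R 4.3.3) on the 20 chow arrays, with stage as the only term, gave each contrast, and calls are at a Benjamini-Hochberg adjusted p under 0.05 over all tested probe sets. Tested probe sets had a stage mean of at least 18.6. Of those used, 10833 named a single gene, 396 several and 1193 none, per the platform annotation, and 8251 genes were represented. On data simulated for this comparison with 200 of 6533 probe sets changed in each of 5 runs, 88.8% of 2-fold and 54% of 1.5-fold changes were recovered, with 5.59% false among the calls. The simulated noise was independent between probe sets, with no outlying array, and the changed probe sets had means above the filter line. A smaller share changed than was called in the data, so these rates may not carry over.

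Prlr, in the preset set, is not analysed here. The 45 gene lists (805 genes, 672 with a probe set) and the members were chosen with earlier results of these data known. Named genes are the 10 largest rises and 10 largest falls whose arrays do not overlap, in each list at most 5 that were called and 2 that were not, a short preset set, and up to 6 genes above and 6 below all other stages at lactation day 1. Members beyond these (Csn3, Plin2, Dhcr7, Cyp51, Acadl, Acadm, Hadhb, Pcx, Cs, Atf4, Xbp1, Pdia3, Pcna, Rfc4, Ccnb2, Cdc20, Cks2, Birc5, Prc1, Cldn8, Gja1, Krt8, H2-K1, Col1a1, Ucp1, Pgr, and the genes listed as lost or gained calls) were chosen after their values were seen. Alternatives covered the filter, the pseudocount, 3 scalings, the arrays in the fit, the variance prior, the probe-set rule, the replicate number as a block and each array left out. The diet arrays entered only the fit of all 32 arrays.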

Additional observations from a re-analysis of the deposited data

Results flagged for a closer look

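Of 386 groups of 4 arrays examined, 23 (5.96%) had an array set off from the other 3 by more than Dixon's 95% critical value for 4 samples. Chance alone flags about 1 in 20 groups. Values of genes are log2 intensities.

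Lactation day 1 replicate 1 accounted for 9 of the 23. It stood off for Wap at 15.76, Anxa1 at 7.30, Msmo1 at 7.07, Creld2 at 5.57, Gja1 at 6.65 and Pdia3 at 8.90. Its summed intensity over all probe sets was 2146019, its summed myoepithelial markers 3212, and its mean correlation with its own stage 0.975, each the lowest of the stage.

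Psmb8 at 8.65 stood off in lactation day 1 replicate 2. Kit at 3.81 stood off in lactation day 1 replicate 3. Lman1 at 9.62 stood off in lactation day 1 replicate 4. Slc39a4 at 5.53, Csn1s2a at 14.49 and Lcn2 at 12.91 stood off in pregnancy day 17 replicate 1. Pdha1 at 10.53, Cldn7 at 7.75 and Pecam1 at 6.13 stood off in pregnancy day 17 replicate 2. Cldn4 at 4.50, Gjb1 at 3.92 and Cyp2e1 at 9.27 stood off in pregnancy day 17 replicate 3. Cpt2 at 6.96 stood off in pregnancy day 17 replicate 4. Summed erythrocyte markers stood off in pregnancy day 17 replicate 2, at 4885 intensity units.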

How the results depend on the processing

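The calls of lactation day 1 against pregnancy day 17 stayed within 1.5 times the 1674 reported under every alternative run but one: with ribosomal medians set equal, 4295 were called, 3879 higher and 416 lower. Leaving out one array of the 2 stages gave 1340 to 1681 calls, 514 to 678 higher and 826 to 1004 lower. Replicate numbers did not pair the arrays (correlations of same-numbered deviations of 0.12, -0.10, -0.02 and 0.12), and the fit with the replicate number as a block called 1701, 678 higher and 1023 lower. No called gene named here changed direction under the alternatives run, while some uncalled ones did, such as Slc7a5 (-0.26 to 0.13), Wap (-0.16 to 0.23) and Stat5a (-0.37 to 0.12). Calls lost were those of Mki67 and Xbp1 with no filter, Xbp1 with array medians set equal, Rplp0 with ribosomal medians set equal, Pecam1 with only the 8 arrays fitted and Scd1 with the mean of its probe sets, beside those lost without single arrays that are given above. The cause was not tested.

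Averaging all probe sets of a gene moved several changes by over 1.5-fold, to 1.72 for Egf, 1.48 for Car4, 1.04 for Mcm5, 1.00 for Fdps, 0.99 for Nsdhl, 0.80 for Mki67, 0.70 for Igha, 0.61 for Cry1, 0.42 for Slc38a2, 0.36 for Lman1, 0.33 for Ighm, -1.83 for Cldn3, -0.69 for Bcl2l1, -0.68 for Zbtb16, -0.59 for Cpt2 and Stx3 and -2.36 for Klf10. With it, 7 fibroblast and matrix markers were called lower in place of 4, and 3 death and involution regulators in place of 5. Adding 16 to the values gave 2.91 for Atp2b2, -2.52 for Plscr2 and -1.33 for Cldn5, and for dim genes -1.09 for Slc39a4, -1.23 for Cldn4, -1.38 for Cd276, -1.90 for Kit, -1.82 for Ubd and 1.31 for Gjb1. Fasn and Ctsb, not called, were called under 10 and 4 of the alternatives.

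Without lactation day 1 replicate 1, lists not given without it above lost the calls of Decr1, Krt18, Cp, Sdhc, Rpl6, Lrp1, Slc1a5, Cope, Hsd11b1, Tgfb3, Igfbp6 and Apoa2 and gained those of Pgm2, Lpin1, Id2, Per1, Arf4, Dsp, Ifi27l2a, Emcn and Ctsb.

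The neighbouring steps were less stable. For lactation day 2 against day 1 (1026 calls, 438 higher and 588 lower), equal ribosomal medians gave 2389 calls, 2040 higher and 349 lower. Equal array medians gave 197 higher and 914 lower, the 75th percentile filter 239 higher, and all 32 arrays 671 higher. Leaving out one array gave 522 to 1326 calls, 176 to 532 higher and 336 to 794 lower, and each of lactation day 1 replicates 2, 3 and 4 and lactation day 2 replicates 3 and 4 moved the count by over 1.5 times, to 560, 522, 594, 642 and 600 without it. For pregnancy day 17 against day 12 (3243 calls), no filter gave 6873 calls with 4624 higher, the 75th percentile filter 1895 with 671 higher and 1224 lower, and fitting only those groups 827 higher. Low signal limits genes under the filter line, whose size of change was not measured.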
